A study of Mus musculus with 6 samples.

Results

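The genes described here encode the Sm, Lsm and SF3 proteins of the mouse spliceosome, followed in the mouse dendritic cell line DC2.4. Members were all protein-coding genes of the deposited count table whose symbols begin with Snrp, or with Lsm, Sf3a or Sf3b followed by a digit. This gave 34 genes of 54532 in the table, of which 22046 are protein-coding. The members were chosen by name, but the family itself was selected on the fold changes and p-values of Sf3b5 and Snrpd2 between the groups compared below, which were already known. All values of that comparison are therefore given as a description, and nothing rests on their counts.

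RNA-seq libraries fell into 2 groups of 3. One group was DC2.4 given pTT5 without an insert, called empty vector here, and the other was DC2.4 given a vector for overexpression of Vdbp. Vdbp is the vitamin D-binding protein, which mice encode in the gene Gc. Per the labels, both cultures were split 48 h following transfection and grown in selective medium from the next day, and the purpose was to examine overexpression of Vdbp in dendritic cells. The labels give neither the sequence carried by the vector nor the origin of replicates (separate cultures or 1 culture), so SEs and p-values reflect the variation among these 6 samples, which may be technical. They also do not say whether a selected population was 1 clone.

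Splicing removes introns from pre-mRNA in a machine built from small nuclear RNAs and their proteins. A ring of Sm proteins is loaded onto the U1, U2, U4 and U5 RNAs, a related ring of Lsm proteins holds the end of U6, and the SF3A and SF3B complexes join the U2 particle and place it on the branch site of the intron. A second Lsm ring works in the cytoplasm, where it binds deadenylated mRNA and promotes removal of the cap. These genes are expressed in nearly all cell types.

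Gc had 0 counts in all 6 libraries, including the 3 labelled as overexpressing Vdbp. The floor of 3 counts allows up to 0.180 to 0.193 CPM in each library, relative to the unscaled library total. All CPM levels given below are counts relative to the library size after TMM scaling. The direction of every comparison below therefore rests on the labels alone, and the second group is called the libraries labelled Vdbp. Library totals lay between 15563800 and 16710975 counts. Of the 13 dendritic cell markers listed, 5 passed the filter on low counts. Itgax stood at 49.6 ± 2.06 CPM with empty vector and 51.0 ± 5.25 in the libraries labelled Vdbp (SD, n = 3). In the same order, Cd74 had 168 ± 4.72 and 203 ± 20.3 CPM, and Irf8 had 59.2 ± 3.26 and 54.2 ± 5.02. Zbtb46 (2.69 and 2.85 CPM) and Ly75 (0.860 and 0.676 CPM) were low. H2-Aa, H2-Ab1, H2-Eb1, Ciita, Flt3, Xcr1, Clec9a and Batf3 had 0 to 6 counts per library. Of 5 macrophage markers, 4 passed the filter and were high, with Adgre1 at 671 ± 16.0 and 583 ± 28.8 CPM in the same order of groups. The other, Mertk, had 0 to 4 counts per library. The summed level of all 5 was 2550.2 to 2854 CPM with empty vector and 2416 to 2846 CPM in the libraries labelled Vdbp. Summed levels of the T cell, B cell, fibroblast and epithelial lists were at most 10.4 CPM in any library of either group. Empty-vector replicate 2 and replicate 1 of the libraries labelled Vdbp had the lowest and the highest score on principal component 1, which held 41.2% of the variance over all tested genes.

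The sequences below show a near-identical copy of the coding sequence of Snrpf, the member with the widest spread between libraries. Snrpf encodes SmF of the Sm ring, and its coding sequence of 261 bases lies in 4 exons within chr10:93583464-93589541 on the minus strand of GRCm38. A processed pseudogene, Gm13092, carries nearly the same sequence at chr4:150315177-150315436, also on the minus strand. Over 258 aligned bases the pair differed at 3 positions (98.8% identity), which are in capitals in both lines, the second line holding the aligned bases of the pseudogene.
Snrpf: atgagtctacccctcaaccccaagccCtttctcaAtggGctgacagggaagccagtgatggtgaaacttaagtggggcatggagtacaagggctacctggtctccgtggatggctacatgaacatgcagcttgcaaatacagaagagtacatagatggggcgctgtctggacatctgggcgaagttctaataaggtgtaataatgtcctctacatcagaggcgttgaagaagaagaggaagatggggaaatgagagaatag
Gm13092: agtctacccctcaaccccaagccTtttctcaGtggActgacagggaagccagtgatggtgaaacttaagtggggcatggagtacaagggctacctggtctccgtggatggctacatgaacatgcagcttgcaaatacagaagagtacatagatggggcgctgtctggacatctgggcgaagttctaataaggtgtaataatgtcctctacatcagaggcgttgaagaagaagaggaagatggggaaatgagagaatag

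Of the 812 windows of 50 bases in the Snrpf principal transcript, 89.5% occurred in the transcript of another gene on one strand or the other. Ccdc38, which overlaps Snrpf on the opposite strand, held 58.5% of the windows, Gm13092 held 21.3% and the lincRNA 4933408J17Rik held 14.7%. The sources used here do not say whether counting used strand or how reads matching several places were treated, so reads of Snrpf and of these genes cannot be told apart with certainty.

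The Sm ring binds a short uridine-rich site of each small nuclear RNA and is needed for import of the particle into the nucleus. Its 7 counted genes did not move as a unit between the groups: 4 were higher and 3 lower in the libraries labelled Vdbp, with log2 fold changes from −0.36 to 0.59 and a median of 0.21. The median over all 12844 tested genes was −0.01. The eighth gene, Snrpn, a paralogue of Snrpb known from neurons, is listed at 0 counts in all 6 libraries. Snurf and Gm38393, which overlap it on the same strand, are also at 0, and 26.2% of the windows of 50 bases in its transcript occur in transcripts of other genes. Since the treatment of ambiguous reads is unknown, its 0 is not read as a level.

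Snrpd2 (ENSMUSG00000040824, chr7:19149722-19153542, plus strand) encodes SmD2, which pairs with SmD1 in the ring. Its level was 84.7, 71.4 and 105 CPM in empty-vector replicates 1, 2 and 3, and 132, 119 and 106 CPM in replicates 1, 2 and 3 of the libraries labelled Vdbp. All 3 of the latter lay above all 3 of the former, although the lowest of them and the highest control were nearly equal. The log2 fold change was 0.45 (SE 0.14, 95% interval 0.15 to 0.75).

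Snrpd1 (ENSMUSG00000002477, chr18:10617796-10628230, plus strand), the gene of the partner SmD1, had the lowest log2 fold change of the ring. It stood at 79.4, 85.6 and 61.1 CPM with empty vector and at 54.8, 58.0 and 63.9 CPM in the libraries labelled Vdbp. Empty-vector replicate 3 was inside the range of the other group, so the groups overlapped. The log2 fold change was −0.36 (SE 0.13, 95% interval −0.64 to −0.07). The ratio of Snrpd2 to Snrpd1 counts was 1.07, 0.834 and 1.71 with empty vector and lay between 1.66 and 2.403 in the libraries labelled Vdbp. The groups overlapped in this ratio as well, through empty-vector replicate 3 and replicate 3 of the other group.

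Snrpf (ENSMUSG00000020018, chr10:93583029-93589706, minus strand) had the largest log2 fold change of the family and the largest error. Its level was 10.3, 12.2 and 32.1 CPM with empty vector and 33.2, 36.9 and 11.9 CPM in the libraries labelled Vdbp, or 168, 202, 542, 534, 618 and 186 counts. A low level of 10.3 to 12.2 CPM in 3 libraries and a high level of 32.1 to 36.9 CPM in the others were visible. Each group held libraries of both: empty-vector replicate 3 was high and replicate 3 of the libraries labelled Vdbp was low. The log2 fold change was 0.59 (SE 0.42, 95% interval −0.34 to 1.51), and it ranged from 0.30 to 1.28 as single libraries were left out, the highest value coming without empty-vector replicate 3. The highest library had 3.58 times the level of the lowest, beside 4.55% of all tested genes with a ratio of 3 or more. Among 2185 protein-coding genes within 1.5-fold of its mean level, 3 including Snrpf itself had a ratio this large, and the median ratio was 1.36.

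Counts assigned to Gm13092, the copy printed above, were 2, 3 and 21 with empty vector and 54, 31 and 24 in the libraries labelled Vdbp. Counts of Ccdc38 were 8, 14 and 18 against 20, 27 and 17. Both were far below those of Snrpf in every library. Gm13092 was high in the same 3 libraries as Snrpf except that replicate 3 of the libraries labelled Vdbp, low in Snrpf, was not low in Gm13092. Whether read assignment bears on the spread of Snrpf was not tested.

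Snrpb (ENSMUSG00000027404, chr2:130171414-130179403, minus strand) encodes SmB, and it had the highest length-scaled level of the ring. Its values were 195, 184 and 230.0 CPM with empty vector and 304, 242 and 219 CPM in the libraries labelled Vdbp, with a log2 fold change of 0.33 (SE 0.13). Replicate 3 of the libraries labelled Vdbp was below empty-vector replicate 3, so the groups overlapped. Snrpe, encoding SmE, stood at 59.5, 73.7 and 67.1 CPM against 56.3, 46.1 and 64.7 CPM, a log2 fold change of −0.26 (SE 0.13), and its groups overlapped. Snrpg and Snrpd3, encoding SmG and SmD3, had log2 fold changes of 0.21 (SE 0.14) and −0.03 (SE 0.14), and their groups overlapped.

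**Figure D1:**
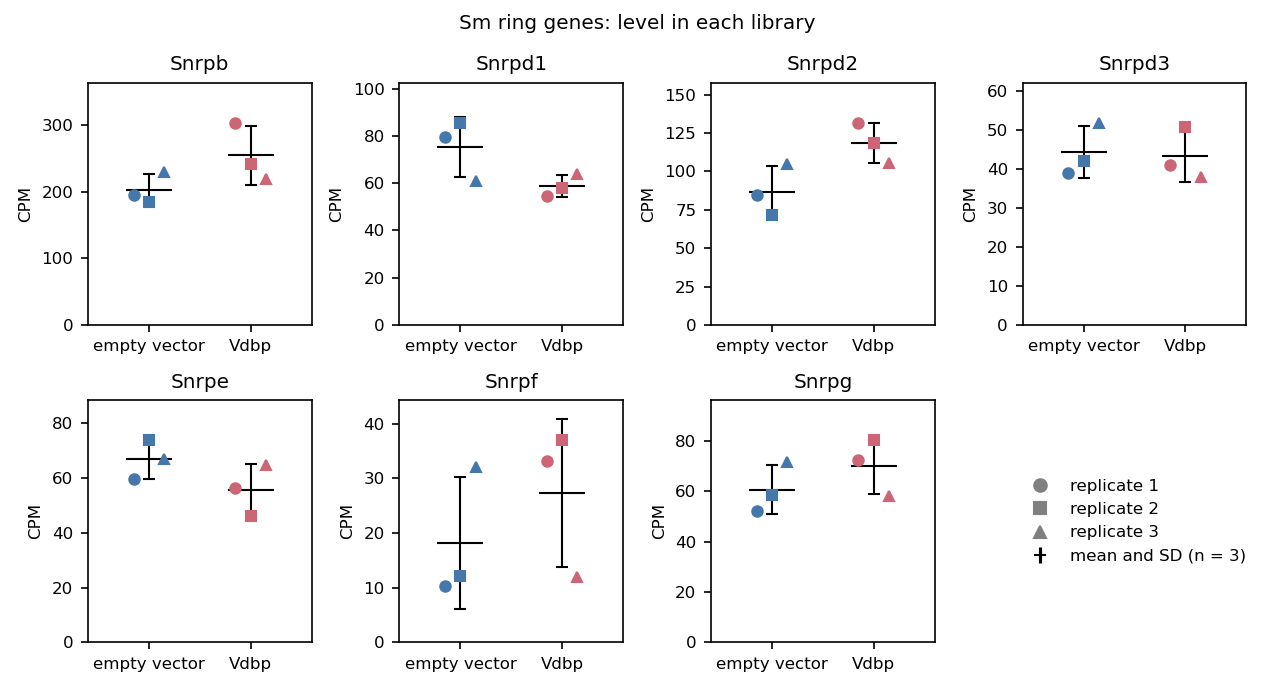
Level in CPM of the 7 counted Sm ring genes, 1 panel per gene with its own axis from 0. Blue marks are empty-vector libraries, red marks libraries labelled Vdbp, the shape gives the replicate, and the bar is the mean with the SD (n = 3). Snrpd2 is the 1 gene whose groups do not overlap, and Snrpf has a high and a low library in each group.

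The 4 members whose proteins bind U1 or U2 alone had smaller differences. Snrpa and Snrpc encode proteins of the U1 particle, which recognises the 5′ splice site, and Snrpa1 and Snrpb2 encode a pair of proteins that bind a stem-loop of the U2 RNA. Snrpa stood at 89.1, 81.2 and 88.7 CPM with empty vector and 104, 95.2 and 90.8 CPM in the libraries labelled Vdbp. The groups did not overlap, and the log2 fold change was 0.16 (SE 0.10, 95% interval −0.05 to 0.37). Log2 fold changes of Snrpc, Snrpa1 and Snrpb2 were 0.14, −0.02 and −0.11, and their groups overlapped. Snrnp70, which the naming rule leaves to the list of other particle proteins below, had a larger value of 0.30 (SE 0.16).

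Of the 8 Lsm genes that build the ring on U6 or the cytoplasmic decay ring, 5 were higher and 3 lower, with a median log2 fold change of 0.08. Lsm4 (ENSMUSG00000031848, chr8:70673248-70678752, plus strand), a subunit of both rings, had the largest value: 89.3, 80.2 and 115 CPM against 140.0, 119 and 99.3 CPM, a log2 fold change of 0.33 (SE 0.15). Lsm3, also in both rings, had the lowest: 29.1, 29.6 and 26.0 CPM against 20.2, 27.7 and 25.7 CPM, a log2 fold change of −0.20 (SE 0.14). The groups overlapped for both genes.

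The subunits that tell the 2 Lsm rings apart were close to 0 in log2 fold change. Lsm1, found only in the decay ring, had 0.12 (SE 0.11), and Lsm8, found only in the U6 ring, had −0.13 (SE 0.15). The Lsm1 to Lsm8 count ratio was 1.37, 1.06 and 0.947 with empty vector and 1.67, 1.11 and 1.27 in the libraries labelled Vdbp, with overlap. Lsm2, Lsm5, Lsm6 and Lsm7 lay between −0.01 and 0.14.

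Lsm10 and Lsm11 take the place of SmD1 and SmD2 in the U7 particle, which trims the ends of histone mRNAs. Lsm10 stood at 16.0, 16.8 and 17.1 CPM against 22.2, 17.4 and 16.9 CPM, where replicate 1 of the libraries labelled Vdbp was high, replicate 2 was just above the controls and replicate 3 lay among them. Its log2 fold change was 0.18 (SE 0.14), and that of Lsm11 was 0.06 (SE 0.15). The longer Lsm-domain proteins Lsm12, Lsm14a and Lsm14b had −0.13, 0.04 and 0.04. Lsm14a is a decapping and P-body protein.

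SF3A is a trimer that joins the U2 particle to SF3B. Sf3a2 (ENSMUSG00000020211, chr10:80798198-80804924, plus strand) stood at 76.7, 59.3 and 93.2 CPM with empty vector and 123, 98.2 and 83.5 CPM in the libraries labelled Vdbp. Empty-vector replicate 3 was above replicate 3 of the other group, so the groups overlapped, and the log2 fold change was 0.41 (SE 0.17, 95% interval 0.04 to 0.77). Its partners differed less: Sf3a1 had a log2 fold change of 0.09 (SE 0.09). Sf3a3, with the highest length-scaled level of the trimer, stood at 103, 103 and 95.4 CPM against 102, 108 and 104 CPM, a log2 fold change of 0.06 (SE 0.09).

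SF3B holds the branch-site adenosine of the intron. Sf3b5 (ENSMUSG00000078348, chr10:13005343-13009183, plus strand), its smallest subunit and also a subunit of the SAGA chromatin complex, had 110.5, 91.4 and 120.0 CPM with empty vector and 162, 130.1 and 138 CPM in the libraries labelled Vdbp. The groups did not overlap, and the log2 fold change was 0.42 (SE 0.12, 95% interval 0.16 to 0.68). Sf3b3, likewise shared with SAGA, had a log2 fold change of 0.10 (SE 0.09).

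Sf3b1 (ENSMUSG00000025982, chr1:54985169-55027481, minus strand), the large scaffold that clamps the branch site, had the lowest value in the complex, level with Sf3b6 within their SEs and above it with the length and GC offset described below (0.03 against −0.05). It stood at 256, 316 and 259 CPM with empty vector and 220.0, 258 and 282 CPM in the libraries labelled Vdbp, a log2 fold change of −0.13 (SE 0.12). The ratio of Sf3b5 to Sf3b1 counts was 0.431, 0.289 and 0.464 against 0.739, 0.505 and 0.490, without overlap. This pair held the highest and the lowest log2 fold change of the complex, and the family was selected on Sf3b5. A separation was therefore favoured by the choice of genes. All other ratios computed overlapped, also those of Snrpb to Snrpd1, Snrpf to Snrpe, Sf3a2 to Sf3a3 and Lsm4 to Lsm3. Sf3b4, which contacts pre-mRNA next to the branch site, stood at 294, 257 and 278 CPM against 362, 275 and 295 CPM, a log2 fold change of 0.17 (SE 0.11). Its groups overlapped. Sf3b2 and Sf3b6, the subunit that touches the branch adenosine, had log2 fold changes of 0.04 and −0.13.

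In all, 33 of the 34 members passed the filter on low counts, and every one of those 33 had at least 168 counts in each library. None was called by edgeR's quasi-likelihood test at a Benjamini-Hochberg adjusted p under 0.05, with adjusted p between 0.781 and 0.989, and neither was any other gene (0% of 12844). At an unadjusted p under 0.05 the fit held 6 members, namely Snrpd2, Sf3b5, Snrpb, Sf3a2 and Lsm4 among the higher and Snrpd1 among the lower, where 5.35% of all tested genes passed and 2.81% passed as higher. DESeq2 called 7 genes (0.0459% of those given an adjusted p) and no member. Without the filter on low counts edgeR called 0.369% of 24135 genes, and among them Snrpd2, Sf3b5 and Snrpf (adjusted p = 0.0243, 0.0417 and 0.0169). The family was selected on Snrpd2 and Sf3b5. Snrpf had overlapping groups and an unadjusted p of 0.192 in the filtered edgeR fit, so these calls are given as a description only.

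Of the 33 members, 22 (66.7%) were higher in the libraries labelled Vdbp and 11 lower, with a median log2 fold change of 0.06. Over all tested genes 48.7% were higher. Groups without overlap were found for 3 members, Snrpd2, Sf3b5 and Snrpa, all with the libraries labelled Vdbp higher (9.09%), and for 5.26% of all tested genes in that direction. No member had all libraries labelled Vdbp below all controls, where 5.61% of all genes did. The 95% intervals of 26 members lay within a 1.5-fold difference either way, and those of 32 within a 2-fold difference. The exception was Snrpf. In these bulk libraries fewer cells with a transcript and less of it per cell cannot be told apart.

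**Figure D2:**
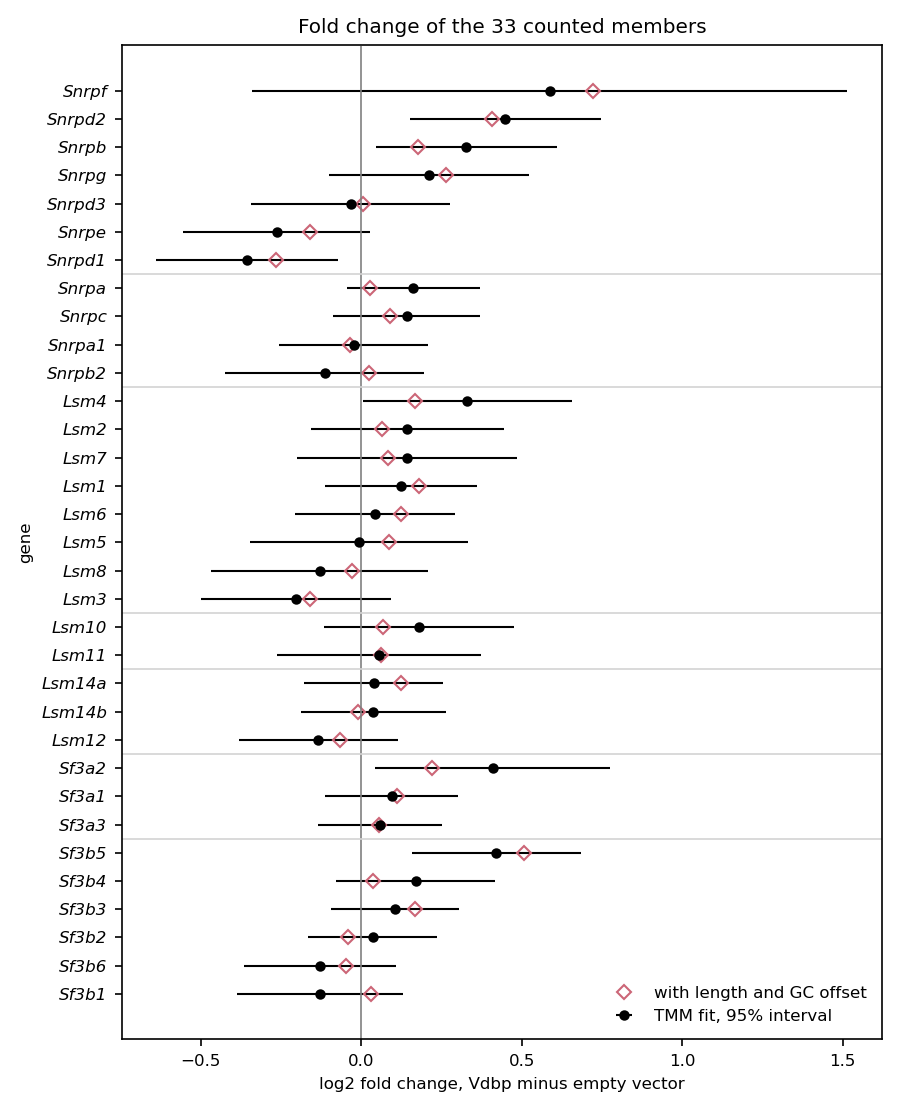
Log2 fold change (libraries labelled Vdbp minus empty vector) of the 33 counted members, by complex. Black points with bars are the TMM-scaled edgeR fit with its 95% interval, and open diamonds the fit with a length and GC offset. The interval of Snrpf runs from −0.34 to 1.51, and those of 26 members stay within a 1.5-fold difference.

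The highest and lowest levels of the members gathered in a pair of libraries. Replicate 1 of the libraries labelled Vdbp held the highest level of 16 members and the lowest of 9, and empty-vector replicate 2 held the lowest of 12 and the highest of 5. Over all tested genes those libraries were also the most extreme: the former was highest for 32.8% and lowest for 32.3% of genes, and the latter lowest for 24.5% and highest for 27.5%. The summed level of the 33 members was 2988, 2908 and 3048 CPM with empty vector and 3403, 3160 and 3068 CPM in the libraries labelled Vdbp. These sums do not overlap, but empty-vector replicate 3 and replicate 3 of the other group were close. Sums also lay apart for the branch-site and 3′ splice-site list below (1608 to 1645 against 1671 to 1738 CPM). They did so for the dendritic cell markers (274 to 292 against 293 to 344 CPM) and, in the other direction, for pan-leukocyte and myeloid markers. Sums of the other splicing lists overlapped, and how often sums of this many genes lie apart was not tested.

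The ratio of the highest to the lowest library was 1.40 at the median member and under 1.5 for 24 members. Only Snrpf (3.58) and Sf3a2 (2.07) reached 2, which is 6.06% of the members and 13.5% of all tested genes. The steadiest members were Lsm14b (1.13) and Sf3a3 (1.14).

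**Figure D3:**
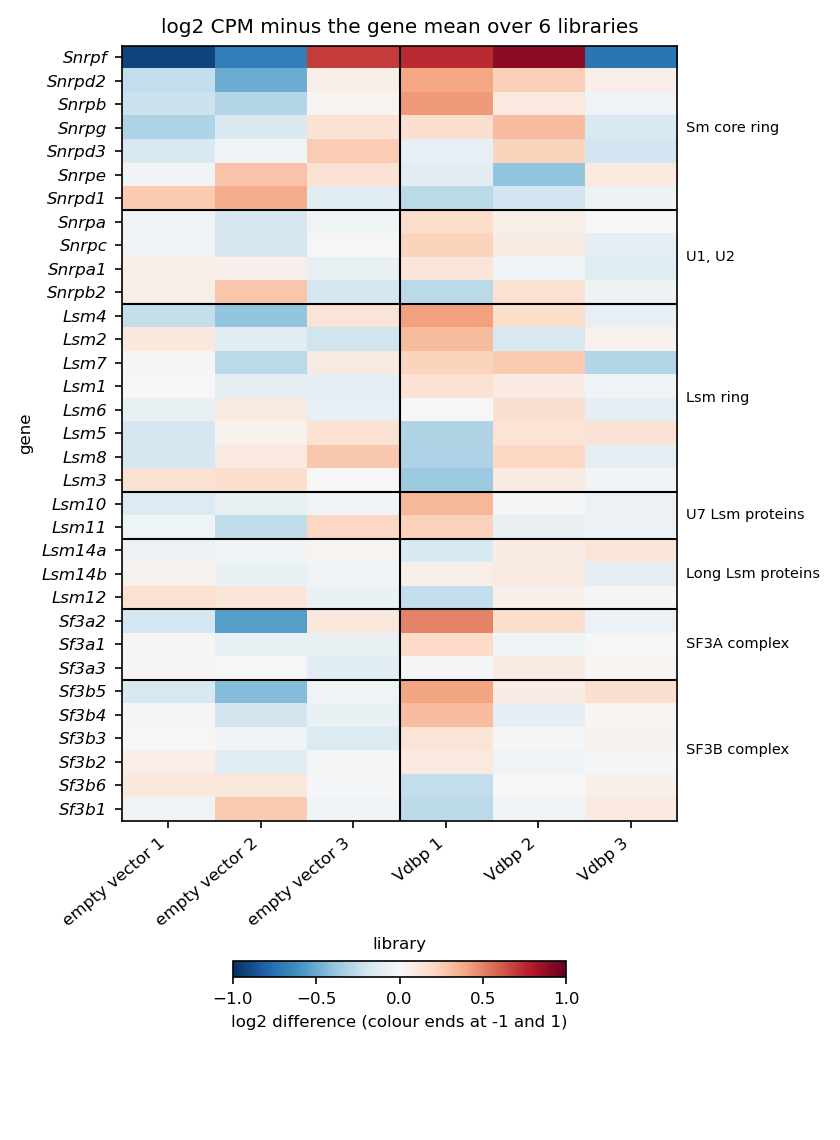
Heat map of log2 CPM minus the gene's mean over 6 libraries for the 33 counted members (rows, by complex) in each library (columns). Red is above and blue below the gene's mean, with colours ending at −1 and 1. Replicate 1 of the libraries labelled Vdbp is the highest library for 16 members and empty-vector replicate 2 the lowest for 12, and Snrpf alternates within both groups.

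Without empty-vector replicate 2 and replicate 1 of the libraries labelled Vdbp, which had the extreme scores, 18 of 33 members were higher, with a median log2 fold change of 0.05. The values were then 0.24 for Snrpd2, 0.22 for Sf3b5, −0.21 for Snrpd1, 0.20 for Snrpf, 0.12 for Snrpb, 0.09 for Sf3a2 and 0.09 for Lsm4. Each of these was smaller in size than with all 6 libraries, and their signs were as before. They were named for large values, and most had their highest or lowest level in the libraries left out, which favoured smaller sizes. Some other members grew in size: Lsm14a went from 0.04 to 0.11, Sf3a3 from 0.06 to 0.09 and Lsm11 from 0.06 to −0.16. Lsm2, Lsm14b, Sf3b1 and Sf3b4 also changed sign, to −0.02, −0.01, 0.06 and −0.01.

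The fold changes moved with base composition. Among 15 members whose principal transcript had a GC content of at least 50%, 14 were higher and the median log2 fold change was 0.14. Among 18 members below 50%, 8 were higher and the median was −0.02. Across genes, Spearman's rho between log2 fold change and GC content was 0.54 over the 33 members and 0.53 over 12834 tested genes with a GC value. These points share the same 6 libraries and are not independent.

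Within single libraries, the rho of the members' deviations from their means with GC content was 0.64 in replicate 1 of the libraries labelled Vdbp and −0.62 in empty-vector replicate 2. It was −0.06 in empty-vector replicates 1 and 3, −0.05 in replicate 2 of the libraries labelled Vdbp and −0.19 in replicate 3 of that group. Over all 12834 genes with a GC value, the rho was 0.74 in replicate 1 of the libraries labelled Vdbp and −0.63 in empty-vector replicate 2. Replicate 3 of the libraries labelled Vdbp also had a trend over all genes, at −0.40, and the remaining libraries lay between −0.08 and 0.06. The pair with extreme scores on principal component 1 also carried the steepest GC trends.

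A fit in which a smooth dependence on length and GC was removed library by library gave a rho of 0.19 for the members and 0.03 for all genes. In it 24 members were higher and 9 lower, beside 50.1% of all genes higher, and the median over members was 0.06 as before. The 15 members with more GC had a median of 0.07 and the 18 others 0.04. Of the 33 members, 21 came closer to 0 and 6 changed sign (Lsm14b, Lsm5, Sf3b1, Sf3b2, Snrpb2 and Snrpd3).

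With this offset several members with high values and high GC content came closer to 0. Sf3a2, at 62.2% GC, went from 0.41 to 0.22, Lsm4, at 59.4%, from 0.33 to 0.17, and Snrpb, at 57.7%, from 0.33 to 0.18. Snrpa went from 0.16 to 0.03 and Sf3b4 from 0.17 to 0.04. Snrpd2, at 52.3%, went from 0.45 to 0.41. Among members of lower GC content, Sf3b5, at 45.5%, went from 0.42 to 0.51 and Snrpf, at 41.3%, from 0.59 to 0.72, both away from 0. Snrpd1, at 43.1%, went from −0.36 to −0.27, and Sf3b1, at 42.1%, from −0.13 to 0.03.

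**Figure D4:**
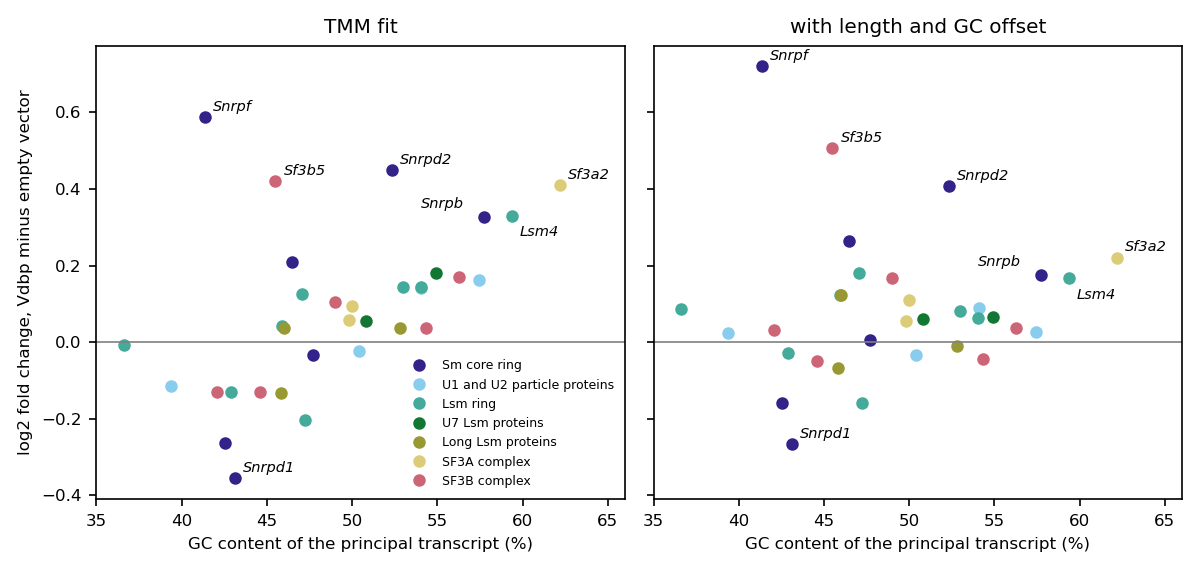
Log2 fold change of the 33 counted members against the GC content of the principal transcript in percent, in the TMM-scaled fit (left) and with a length and GC offset (right). Each point is 1 gene, coloured by complex. Spearman's rho is 0.54 on the left and 0.19 on the right, and Snrpf, Sf3b5 and Snrpd2 are the highest points on the right.

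Levels between members were compared as CPM per kilobase of the deposited gene length, as means over all 6 libraries. Sf3b4 was highest at 136 ± 16.9 (SD, n = 6), then Snrpb at 116 ± 21.5 and Lsm4 at 103 ± 21.1. The SDs of neighbours overlapped, but within each of the 6 libraries Sf3b4 was above Snrpb and Snrpb above Lsm4. Sf3b2 (80.9 ± 4.30) and Snrpd1 (80.2 ± 14.9) followed and were not separated, with an order that differed between libraries. Below a gap came Snrpe at 44.6 ± 6.99, Snrpg at 41.7 ± 6.87, Snrpd2 at 39.3 ± 8.39 and Sf3a3 at 36.9 ± 1.51, again not separated. Sf3b5 was at 32.7 ± 6.35, Snrpf at 26.4 ± 14.5 and Sf3b1 at 23.3 ± 2.82.

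At the lower end stood Lsm8 (6.93 ± 1.08) and Lsm11 (3.37 ± 0.436), the U7 subunit, with Snrpn listed at 0. The 7 counted Sm ring genes, whose proteins enter the ring in equal numbers, ranged from 12.7 (Snrpd3) to 116 (Snrpb) on this scale, and from 88.3 (Snrpf) to 330.4 (Snrpb) CPM per kilobase of coding length, where Snrpd3 was at 116. The range and the order thus depend on the length used. The deposited gene length of Sf3b5 is 3841 bases but its coding length is 258, and per kilobase of coding length Sf3b5 ranked first in place of the 11th. Spearman's rho between the 2 orders was 0.509 over the 34 members.

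**Figure D5:**
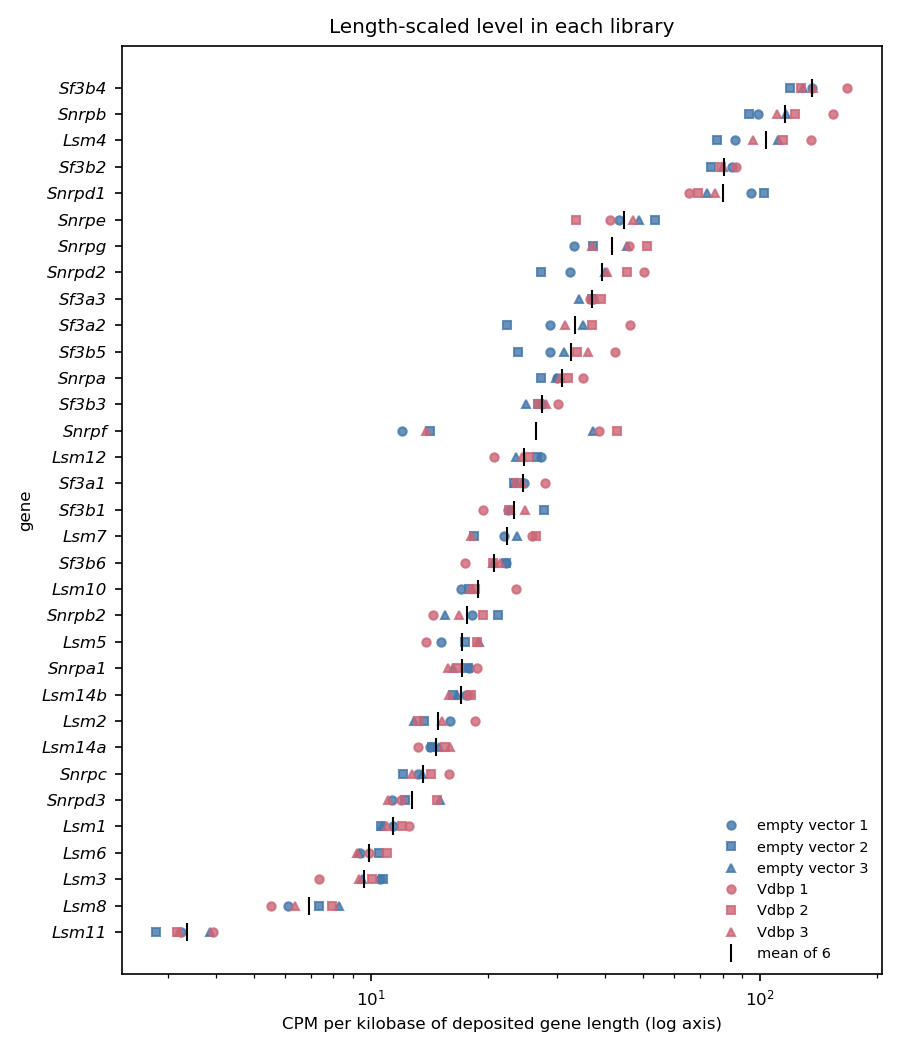
CPM per kilobase of deposited gene length on a log axis for the 33 members with counts, ordered by their mean. Blue marks are empty-vector libraries, red marks libraries labelled Vdbp, the shape gives the replicate and the bar the mean of 6. Sf3b4, Snrpb and Lsm4 are highest and Lsm11 is lowest, and for most members the libraries of both groups lie among each other.

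Shared sequence touched other members too. Any window of 50 bases shared with another gene's transcript was found in 25 of the 34 principal transcripts. After Snrpf the largest shares were 62.8% in Lsm7, and 51.2% in Sf3b4, mostly with processed pseudogenes. The copy of Lsm7, Gm10146, had 124, 137 and 98 counts against 104, 135 and 46, and the copy of Sf3b4, Gm7935, had 19, 16 and 24 against 39, 23 and 18. Of Snrpd2 11.7% was shared, with copies of at most 6 counts in any library, and of Sf3b5 1.08%. Lsm4 and Sf3b1 had no shared window, and Snrpb had 1. Sf3a2 overlaps Plekhj1 on the opposite strand, which had 697, 699 and 780 counts against 874, 872 and 665.

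RefSeq promoter windows (GRCm38.p6, 250 bases before to 50 after the start) were found for 27 of the 34 members. Those of 3 Sm ring genes are shown because their genes build 1 ring but differed in direction, Snrpd2 and Snrpf being higher and Snrpe lower. Each is printed from 250 bases before to 30 after the start, with matches to the 5 motifs searched in capitals. The Snrpd2 window is chr7:19149588-19149867 on the plus strand, that of Snrpe chr1:133610251-133610530 on the minus strand and that of Snrpf chr10:93589629-93589908 on the minus strand.
Snrpd2: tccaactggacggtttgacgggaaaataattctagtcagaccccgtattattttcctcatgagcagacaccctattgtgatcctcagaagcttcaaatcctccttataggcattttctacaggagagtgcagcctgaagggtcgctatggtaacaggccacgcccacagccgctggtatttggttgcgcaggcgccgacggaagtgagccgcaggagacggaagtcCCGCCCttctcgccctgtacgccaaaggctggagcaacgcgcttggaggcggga
Snrpe: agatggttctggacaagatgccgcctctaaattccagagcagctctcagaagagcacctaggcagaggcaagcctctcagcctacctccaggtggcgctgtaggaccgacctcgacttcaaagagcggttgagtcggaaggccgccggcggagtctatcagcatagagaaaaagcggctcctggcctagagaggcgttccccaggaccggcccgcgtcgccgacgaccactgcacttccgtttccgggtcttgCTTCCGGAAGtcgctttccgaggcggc
Snrpf: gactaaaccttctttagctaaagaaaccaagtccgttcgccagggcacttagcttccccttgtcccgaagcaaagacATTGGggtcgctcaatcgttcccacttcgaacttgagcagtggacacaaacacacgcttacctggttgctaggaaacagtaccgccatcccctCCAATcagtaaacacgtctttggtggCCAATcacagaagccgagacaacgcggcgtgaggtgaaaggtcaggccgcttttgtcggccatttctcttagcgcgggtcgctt

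The 5 motifs were searched on both strands, and none of them contains another. The Snrpd2 window holds a GC box, that of Snrpe the ETS motif CCGGAAG on both strands, and that of Snrpf the CCAAT box on both strands. Shorter forms of the ETS motif were not searched, and the Snrpd2 window does hold the letters CGGAAG. The ETS motif in this form, CCGGAAG, was in 11 of the 27 member windows (40.7%), in 19.9% of 8824 windows of tested coding genes and in 9.12% of all 27025 windows. The CCAAT box, named by its letters, was also in 11 member windows, beside 39.5% of tested coding genes. The GC box, GGGCGG, was in 18 (66.7%), beside 65.3%. The TATA box, TATAAA, was in 2 (7.41%), beside 6.58%. The E-box, CACGTG, was in 1 (3.70%), beside 10.5%. A match describes these letters and is no evidence of binding.

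Other genes of the splicing pathway were taken from fixed lists, none of which held a gene called by edgeR. Of 15 genes for assembly of the Sm ring (the SMN complex and the methylosome) 8 were higher, with a median log2 fold change of 0.00, and the gene with the largest difference was Gemin8 at −0.25 (SE 0.16). Of 12 genes for branch-site and 3′ splice-site recognition 6 were higher (median 0.03), led by Puf60, a partner of U2AF, at 0.26 (SE 0.11). Of 24 proteins of the U1, U4/U6, U5 and minor particles 16 were higher (median 0.03), led by Snrnp25 of the minor spliceosome at 0.33 (SE 0.14). Of 23 genes of the Prp19 complex and the catalytic steps 10 were higher (median −0.05), and Cdc5l had the largest difference at −0.23 (SE 0.14).

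Among the splicing regulators most genes were higher in the libraries labelled Vdbp, beside 48.7% of all tested genes, or 50.1% with the offset. Of 12 SR proteins 10 were higher (median 0.10, 0.18 with the length and GC offset), led by Srsf9 at 0.32 (SE 0.15), and of 24 hnRNP proteins 18 were higher (median 0.06, 0.15 with the offset), led by Hnrnpa0 at 0.35 (SE 0.18). Hnrnpa0 stood at 197, 159 and 292 CPM with empty vector and 289, 296 and 241 CPM in the libraries labelled Vdbp, so its groups overlapped through empty-vector replicate 3. Of the 9 decapping and decay partners of the Lsm ring 4 were higher (median −0.02), led by the scavenger decapping enzyme Dcps at 0.29 (SE 0.14). Of 8 genes for histone mRNA end processing, the task of the U7 particle, 3 were higher (median −0.07), and Slbp, which binds the histone stem-loop, had the largest difference at 0.19 (SE 0.11). With the offset the medians were 0.005 for assembly, 0.02 for branch-site and 3′ splice-site recognition, 0.07 for the particle proteins and −0.0008 for the Prp19 list. They were 0.01 for the decay partners and −0.004 for histone mRNA end processing.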

How the data were processed

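Libraries from 3 empty-vector samples and 3 samples labelled Vdbp were analysed. Raw counts for each Ensembl gene are as the authors deposited them, and the deposited FPKM values each equalled the count divided by the table's gene length and 1 constant per library. The submitters' processing notes list HISAT2 and StringTie with no version, with the counter, strand setting, build and annotation not given in the sources used here. Of the gene identifiers 99.8% were in GENCODE M21 (GRCm38), 98.3% with the same start and end, and 32 of the 34 members matched so. Transcripts, coding lengths and GC contents are from that release, using 1 principal transcript per gene.

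Counts were fitted in R 4.3.3 with edgeR 4.0.16: filterByExpr (minimum count 10, minimum total 15, proportion 0.7), TMM scaling, a two-sided quasi-likelihood test with group as the only term, and Benjamini-Hochberg adjustment over all 12844 tested genes, which held 99.9% of counts. Alternatives were scaling by RLE or by the total count, limma-voom (limma 3.58.1), DESeq2 1.42.0, limma on log2(FPKM + 1) and log2(FPKM + 0.1), no filter, a minimum of 1 CPM across one whole group, a replicate block, a length and GC offset (mgcv 1.9.3), and leaving out libraries. The offset on principal transcript length and GC and the scaling by coding length were chosen after seeing the data. On simulated counts (12844 genes) edgeR recovered 54% of 1.5-fold and 77% of 2-fold changes, with 4.38% false calls. These counts were drawn gene by gene, without the GC trends that the real libraries carry. The simulation therefore checks the code, and its rates do not carry over to this comparison. Floors of counts cover counting error only. The intervals of fold changes come from the edgeR fit and, like the SEs, reflect the variation among these samples, which may be technical.

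The members and lists were chosen with earlier results of these data known. Values in each library are given for Sf3b5 and Snrpd2, for the members with the highest and lowest log2 fold change and the highest length-scaled level in the Sm ring, Lsm ring, SF3A and SF3B, and the gene with the largest difference stands for each other list. Snrpa, Snrpe, Lsm10 and Snrnp70 were chosen after their values were seen, as were the copies and overlapping genes named.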

Additional observations from a re-analysis of the deposited data

How the results depend on the processing

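No gene of all tested was called in the main edgeR fit with all 6 libraries. The count of called genes was 7 with DESeq2, 89 with no filter on low counts, 2 with the length and GC offset, 2 with the offset on principal transcript length and GC, and 2 without empty-vector replicate 2 and Vdbp replicate 1. It ranged from 0 to 22 as each library was left out, 22 coming without empty-vector replicate 3 and 1 without empty-vector replicate 2. No member was called under any of these settings except with no filter, which called 3. Members higher ranged from 21 to 24 of 33 as single libraries were left out and their median log2 fold change from 0.05 to 0.10. Replicate numbers were not shown to pair the samples: deviations of same-numbered libraries correlated at 0.14, 0.03 and −0.27. With the replicate block no gene was called, 22 members were higher and their median was 0.06, and with the block and the offset no gene was called. For 12 members, those of the naming rule and Snrpe, values were recomputed under 19 settings, 228 in all, of which 223 moved by less than the spread between replicates. The 5 that moved further were all without empty-vector replicate 2 and Vdbp replicate 1: Snrpb at 0.12, Sf3a2 at 0.09, Sf3b5 at 0.22, Sf3b1 at 0.06 and Sf3b4 at −0.01. Leaving out a single library can hardly move a value by more than that spread, so the count of 223 does not measure stability. For Snrpf, at 0.59 in the main fit, the spread was 0.887. Its 1.28 without empty-vector replicate 3 and its 0.20 without that pair of libraries were both counted as unmoved. Counted separately, 5 values had the other sign: Sf3b1 at 0.03 with the length and GC offset, 0.03 with the block and offset, 0.02 with the transcript offset, and Sf3b1 and Sf3b4 without that pair of libraries. The order of levels by coding length had a Spearman's rho of 0.509 with that by gene length. The 33 tested members had at least 168 counts in each library, and whether depth limits their comparison was not tested.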
